A study of Saccharomyces cerevisiae W303 with 16 samples.

Results

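Moving budding yeast from 25°C to 37°C is a classic heat shock. The transcription factor Hsf1 induces chaperones, Msn2 and Msn4 induce a general stress program of carbohydrate storage, redox and repair enzymes, and transcription of the genes for making ribosomes is shut down. Each of these steps changes mRNA levels, and the ribosomes on each mRNA can change as well, because stress alters initiation, and upstream open reading frames or long coding sequences load and clear ribosomes in their own way. Footprints per mRNA, the ribosome-protected fragments of a coding sequence (CDS) set against its mRNA level, separate the second kind of change from the first.

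The data compare wild-type *SUP45* cells after 30 min at 37°C with *SUP45* cells after a mock shift at 25°C. Both are one MATa haploid strain of the W303 background, grown in YPD, which carries *ade2-1* and *can1-100*, alleles with premature stop codons, and auxotrophic mutations in *HIS3*, *LEU2*, *TRP1* and *URA3*. Cells were collected by centrifugation and given fresh medium at 25°C before prewarmed medium raised the temperature, so the mock cells went through the same handling. Ribosome profiling sequenced 2 libraries per condition, and the deposited tables hold their pooled frame 0 footprint counts, which leaves 1 footprint value per condition. Total RNA-Seq after rRNA depletion gave 2 separate libraries per condition. Nothing states that replicates came from separate cultures, so p-values measure only the spread between these libraries. A *sup45-ts* strain carries the temperature-sensitive *sup45-2* allele of eRF1 (the release factor encoded by *SUP45*) and the same markers. It went through the same shift and is used below only as a second set of libraries. Per the paper, this eRF1 is inactive within 30 min at 37°C, and ribosomes then stall at stop codons. Its shift therefore joins heat with loss of eRF1, and these cannot be told apart in it.

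The transcripts described are those with at least 100 CDS footprints at both temperatures, 4629 of 6575 in the tables. Of the others, 1531 were under 100 at both temperatures, 382 at 25°C only and 33 at 37°C only. The transcripts nearest to the limit were *YBL029C-A* and *YBL068W-A* with 100 footprints at 25°C on the inside, and *NEM1* with 99 footprints at 25°C and *BMT2* with 99 at 37°C on the outside. For 4626 of the 4629 an mRNA level above 0 was measured at both temperatures. The tables held 17278816 footprints at 25°C and 16629631 at 37°C, and the RNA-Seq libraries of *SUP45* cells held 107324550 to 153654244 expected counts. Markers matched the labels, since the MATa genes *STE2*, *STE6* and *BAR1* had 3376 to 8581 footprints in either condition and the short *MFA1* and *MFA2* had 82 to 226, the MATalpha genes *STE3*, *MF(ALPHA)1*, *MF(ALPHA)2* and *SAG1* had 1 to 69, and *HSP104*, the disaggregase that marks heat shock, went from 2962 footprints at 25°C to 208941 at 37°C.

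Footprint levels are RPKM (footprints per kilobase of CDS, scaled to the total footprints of the table) and mRNA levels are FPKM. Both are shares of a library, so a change in the total amount of translation or of mRNA is not visible in either. On this scale the median transcript had a log2 footprint change of 0.47 and a log2 mRNA change of 0.46, whereas edgeR's TMM scaling put the median mRNA change of the same transcripts at -0.09. The log2 change in footprints per mRNA is the footprint change minus the mRNA change, centred on the median transcript, which moved all values by less than 0.01. Its standard error (SE) joins the spread of the RNA-Seq libraries with the counting error of the pooled footprints. Differences between footprint libraries are not in it, and no test of footprints per mRNA was possible. A change is called when it reaches 2-fold.

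The ribosome footprints of most transcripts followed their mRNAs. Across the 4626 transcripts the footprint change had an SD of 1.20 log2 units and the mRNA change 1.12, while footprints per mRNA had an SD of 0.35, with 91.9% of transcripts within 1.4-fold of the median. Pearson's r between footprint and mRNA change was 0.96 and Spearman's rho 0.94, over transcripts, which are not independent replicates and share the same libraries. Of the 1649 transcripts whose footprint level differed at least 2-fold, 1337 had an mRNA level at least 2-fold different in the same direction, and only 36 had an mRNA change under 1.4-fold or in the other direction. The background for these counts is large, since 25.2% of transcripts had footprint levels at least 2-fold higher at 37°C and 10.4% at least 2-fold lower. By edgeR's quasi-likelihood test at an adjusted p of 0.05, 38.4% of 6767 tested transcripts had higher mRNA and 37.4% lower mRNA at 37°C. Footprints per mRNA were at least 2-fold higher for 24 transcripts, 0.519% of those measured, and at least 2-fold lower for 30, 0.649%.

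**Figure D1:**
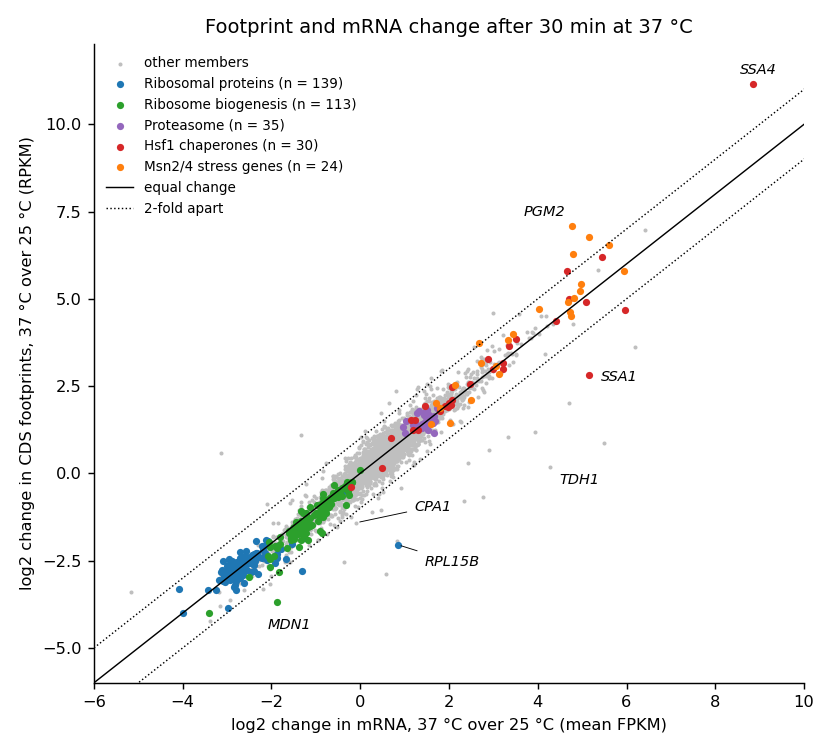
Log2 change in CDS footprints (RPKM, y axis) against log2 change in mean mRNA level (FPKM, x axis) at 37°C over 25°C, 1 point per transcript, with 5 gene lists in colour. The lists spread along the line of equal change, from ribosomal proteins at the bottom left to *SSA4* at the top right, and the transcripts beyond the dotted 2-fold lines are few.

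The spread can be read against a pair of reference comparisons. With no heat shift at all, that is, when *sup45-ts* was compared with *SUP45* at 25°C, footprints per mRNA had an SD of 0.20 over 4648 transcripts, and 10 of them (0.215%) differed at least 2-fold. The same shift in *sup45-ts* cells, where eRF1 is also inactivated, gave an SD of 0.61 over 4331 transcripts. There 2.82% were at least 2-fold higher and 4.27% at least 2-fold lower, from a 37°C table of only 6463100 footprints. The heat shift of *SUP45* cells lay between these. Transcripts with the largest mRNA changes also had shifted medians of small size. The median change in footprints per mRNA was 0.12 for the 73 transcripts whose mRNA was at least 8-fold higher, 0.03 for the 1077 at least 2-fold higher, and -0.12 for the 413 at least 2-fold lower.

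What the ribosomes were engaged on was nevertheless rearranged, mostly at the expense of the ribosome itself. The 139 genes of the list of cytosolic ribosomal proteins held 24.3% of all CDS footprints at 25°C and 3.91% at 37°C. The list was matched on gene names and includes *RPP1*, which encodes a subunit of RNase P and not a ribosomal protein. Their share of mRNA reads was 23.1% and 25.7% in the libraries at 25°C and 3.82% and 3.97% in those at 37°C. The 32 Hsf1 chaperones and co-chaperones went the other way, from 1.91% to 14.6% of footprints, against 1.72% and 1.61% of mRNA reads at 25°C and 12.8% and 11.97% at 37°C. For the 36 Msn2/4 stress genes the footprint share was 0.153% at 25°C and 2.84% at 37°C. The share of the 16 elongation and termination factors was 7.96% at 25°C and 3.51% at 37°C, and that of the 113 ribosome biogenesis factors was 2.47% and 0.862%. Glycolysis and fermentation enzymes held 14.1% and 16.1%. The widest 95% exact binomial interval of any such share spanned 0.041 percentage points, which covers counting error only. Footprints of sequence common to copies of a duplicated gene may have been assigned to any of the copies.

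**Figure D2:**
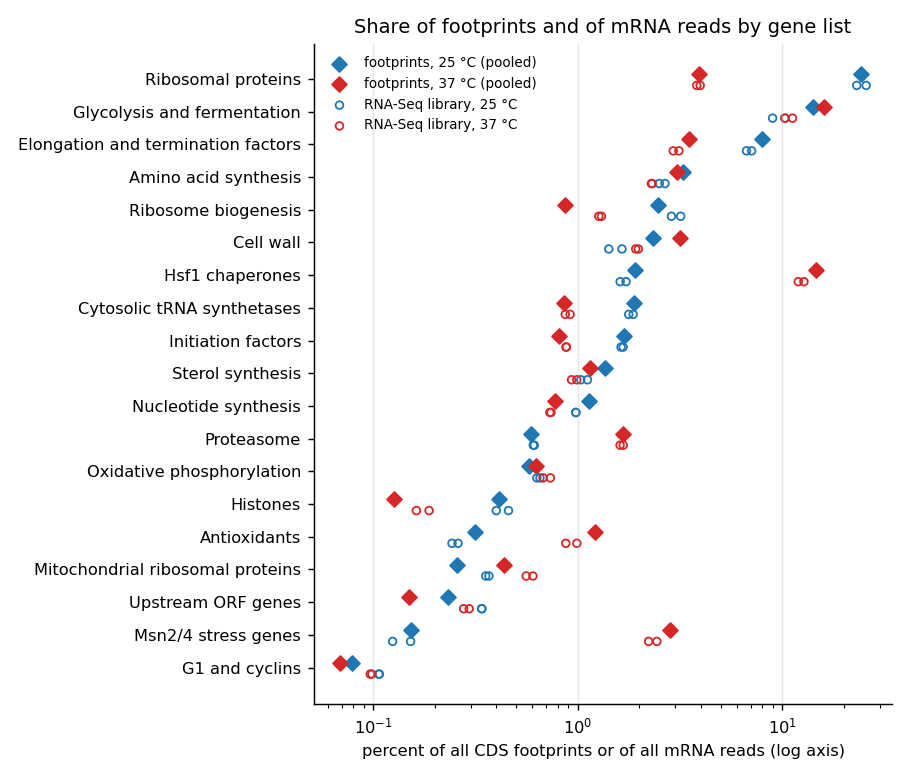
Share of all CDS footprints (filled diamonds, 1 pooled value per condition) and of all mRNA reads (open circles, 1 per library) held by each of 19 gene lists at 25°C (blue) and 37°C (red), on a log axis. Ribosomal proteins moved from 24.3% to 3.91% of footprints and Hsf1 chaperones from 1.91% to 14.6%, and in all 19 lists the mean mRNA share moved in the same direction as the footprint share.

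The ribosomal protein genes had lower footprints together and lower mRNA together, and the ratio stayed near that of the median transcript. Relative to the median transcript, their median log2 footprint change was -3.12 and their median mRNA change -3.17. Footprint levels of 138 of 139 were at least 2-fold lower (background 10.4%). The exception was *RPP1*, the RNase P gene matched by name, with a log2 footprint change of -0.52. By edgeR the mRNA of 138 fell and of 1 rose (background 37.4% and 38.4%). The median change in footprints per mRNA was 0.03, with 78 genes above 0 and 61 below. With no heat shift, the list's median difference of *sup45-ts* over *SUP45* at 25°C was -0.12. *RPL3*, which encodes a core protein of the large subunit, had 106013 footprints at 25°C and 23547 at 37°C, with 5018 and 5020 FPKM at 25°C and 1133 and 1059 at 37°C, a change in footprints per mRNA of 0.08 ± 0.05 (SE). *ASC1*, which encodes the yeast RACK1 of the small subunit, had 109102 and 13763 footprints, with 3490 and 3514 FPKM at 25°C and 446 and 382 at 37°C, a change of 0.15 ± 0.11. For both genes the RNA-Seq libraries of the conditions did not overlap. The 2 called ribosomal protein genes, *RPL15B* at -2.88 and *RPL18B* at -1.49, are each a member of a near-identical pair.

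Factors that assemble ribosomes had lower mRNA, and most had slightly fewer footprints per mRNA. All 113 ribosome biogenesis genes measured had mRNA that fell by edgeR (background 37.4%). Relative to the median transcript their median footprint change was -1.75 and their median mRNA change -1.59. The median change in footprints per mRNA was -0.16, with 97 genes below 0 and 16 above, against 2313 and 2313 among all transcripts. It was -0.07 without replicate 1 and -0.24 without replicate 2 of the RNA-Seq libraries at 25°C. With no heat shift, the list's median difference of *sup45-ts* over *SUP45* at 25°C was 0.10. Those with the most footprints were the box C/D and H/ACA snoRNP proteins *NOP58* (-0.05 ± 0.05), *NOP1* (-0.15 ± 0.07), *NOP56* (-0.25 ± 0.08) and *CBF5* (-0.20 ± 0.10). The 2 called members of the list were *MDN1* and *RRP5* (background 0.649%). Cytosolic tRNA synthetases had a median of -0.15, with 16 of 20 below 0 and mRNA of all 20 lower by edgeR (background 37.4%). That median was -0.08 without replicate 1 at 37°C and -0.10 without replicate 2 at 25°C. *CDC60*, the leucyl-tRNA synthetase, stood at -0.36 ± 0.09 and *GUS1*, the glutamyl-tRNA synthetase, at -0.03 ± 0.09. Initiation factors had a median of -0.04 over 28 genes and elongation and termination factors -0.02 over 16, with no member called in either direction. *TIF4631*, which encodes the scaffold eIF4G1, had 15264 and 4051 footprints and a change of -0.48 ± 0.05, and *DED1*, the DEAD-box helicase of scanning, had 15279 and 10514 and a change of -0.05 ± 0.16. *SUP45* itself had 9126 footprints at 25°C and 5417 at 37°C, with 408 and 445 FPKM at 25°C and 259 and 277 at 37°C, and its footprints per mRNA changed by -0.02 ± 0.08.

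Most chaperone genes had higher footprint levels at 37°C, from 0.16 in log2 for *CPR3* to 11.14 for *SSA4*, and only *MGE1* was lower, at -0.38. Relative to the median transcript the 30 measured Hsf1 targets had a median footprint change of 2.05 and a median mRNA change of 1.81. On that scale 25 were at least 2-fold higher, against 572 of 4629 members. In RPKM without centring, 28 had footprint levels at least 2-fold higher (background 25.2%). By edgeR the mRNA of 27 rose and of 1 fell (background 38.4% and 37.4%). The median change in footprints per mRNA was 0.03, with 2 called higher and 2 lower. *HSP104* had 79.5 and 76.0 FPKM at 25°C and 3361 and 3385 at 37°C, and its footprint level of 64.1 RPKM at 25°C was 4695 RPKM at 37°C, a change in footprints per mRNA of 0.76. The mitochondrial chaperonin *HSP60* stood at -0.01, the Hsp90 co-chaperones *STI1* at -0.05 and *AHA1* at 0.29, and the Hsp40 *YDJ1* at 0.05. The called members were *SSA4* (2.30) and *SSE2* (1.15) on one side, and *SSA1* (-2.33) and *HSP82* (-1.28) on the other. *SSA1*, *SSA4* and *HSP82* belong to families whose copies share long stretches of sequence.

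Stress genes of the Msn2/4 program held the highest list median for footprints per mRNA. Of 36 listed genes 24 reached 100 footprints at both temperatures, and the rest are not in these counts. All 24 had footprint levels at least 2-fold higher (background 25.2%) and mRNA that rose by edgeR (background 38.4%). Of the 24, 22 had footprint levels at least 2-fold above the median transcript. Their median change in footprints per mRNA was 0.29, with 17 above 0, and 4 were called higher (background 0.519%). The median was 0.13 without replicate 1 and 0.50 without replicate 2 of the RNA-Seq libraries at 25°C. In the shift of *sup45-ts* cells the median of the same 24 genes was -0.04. With no heat shift, the list's median difference of *sup45-ts* over *SUP45* at 25°C was -0.09. *UBI4*, the polyubiquitin gene, had 3655 and 105136 footprints and a change of 0.23 ± 0.10. The glucokinase *GLK1* had 1112 and 45856 footprints and a change of 0.46 ± 0.41, where the large error comes from 29.4 and 16.7 FPKM in the libraries at 25°C. Glycogen synthases stood apart, with *GSY2* at 1.05 and *GSY1* at -0.58. All 35 proteasome genes had mRNA that rose by edgeR (background 38.4%) and footprint levels at least 2-fold higher (background 25.2%), with log2 changes from 1.14 to 1.88 in RPKM. Relative to the median transcript, 19 of the 35 were at least 2-fold higher. Their median footprint change was then 1.01, with a median change in footprints per mRNA of 0.10. *RPN4*, which encodes the transcription factor of the proteasome genes, stood at 0.46.

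Other lists had medians inside the middle range of all transcripts, -0.16 to 0.16, except for the G1 and cyclin genes. Mitochondrial ribosomal proteins stood at 0.06, antioxidants at 0.03, nucleotide synthesis at -0.02, glycolysis and fermentation at -0.03, amino acid synthesis at -0.05, sterol synthesis at -0.07, oxidative phosphorylation at -0.07, cell wall genes at -0.13, genes with known upstream open reading frames at -0.13 and histones at -0.14. The mitochondrial list was matched on gene names and also holds *YMR1*, *YMR31* and *MRP8*, which do not encode proteins of the mitochondrial ribosome. The G1 and cyclin genes had the lowest median, -0.20 over 17 genes, with 11 below 0. Leaving out 1 RNA-Seq library turned the sign of the medians of ribosomal proteins, glycolysis, sterol synthesis, nucleotide synthesis and antioxidants, and leaving out duplicated families turned that of histones to 0.06. Whether mRNA rose or fell in the lists near the median depended on scaling. Oxidative phosphorylation genes, for example, had a median mRNA change of 0.36 in FPKM. On the TMM scale edgeR called 21 of 37 lower and 4 higher (background 37.4% and 38.4%).

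**Figure D3:**
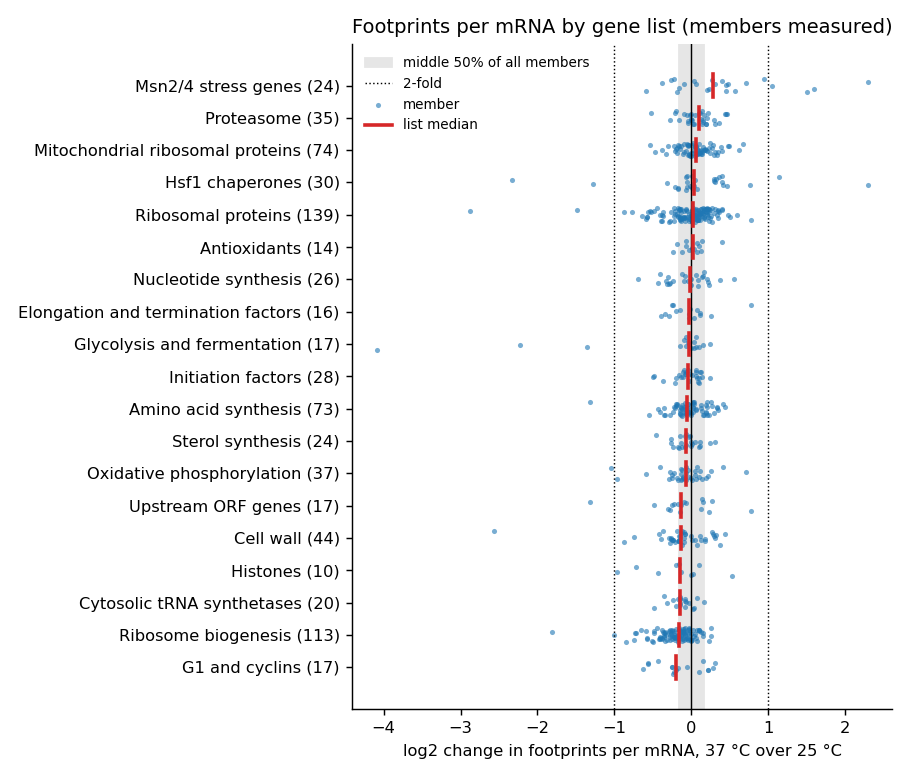
Log2 change in footprints per mRNA at 37°C over 25°C, 1 point per gene, for 19 gene lists in order of their median (red bar), with the number measured in brackets. The grey band is the middle 50% of all transcripts and the dotted lines mark 2-fold. List medians lie between -0.20 and 0.29, and the points beyond 2-fold are single genes.

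The 24 transcripts with footprints per mRNA at least 2-fold higher at 37°C were mostly sparse at 25°C. Of these, 19 had under 300 footprints at 25°C, while the 1157 of 4626 members with the fewest had 100 to 351. In the listed duplicated families or Ty elements were 7, and 15 stayed past 2-fold in all 4 pairings of the RNA-Seq libraries. By edgeR the mRNA of 15 rose and of 7 fell, against 1602 and 2054 of the 4624 members tested. In *sup45-ts* cells, whose libraries are separate, 20 of the 22 with a value changed in the same direction and 7 were at least 2-fold higher (background 2.82%). Among the 30 transcripts called lower, 26 of 27 changed in the same direction and 21 were at least 2-fold lower (background 4.27%). Over all 4271 members with a value in both strains, 59.8% changed in the same direction. Of the 30 called lower, 19 were in duplicated families or Ty elements, by a list drawn up after the values were seen. Reads of both strains were assigned to copies by the same procedures, so an error in that step would recur in *sup45-ts* cells. For such copies the agreement between the strains therefore does not test the values.

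*PGM2*, the phosphoglucomutase that feeds glycogen and trehalose synthesis, lies on chromosome XIII (475897 to 477606, build R64). It had 103 footprints at 25°C and 13385 at 37°C, or 3.59 and 485 RPKM. Its mRNA level was 11.8 and 10.3 FPKM in the libraries at 25°C and 285 and 320 at 37°C. The ratio of footprints to mRNA was 4.92-fold higher, a log2 change of 2.30 ± 0.19 that ranged from 2.11 to 2.48 over the pairings. In *sup45-ts* cells the same gene changed by 2.14.

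*SSA4*, the strictly heat-inducible Hsp70 on chromosome V (364589 to 366517), had the largest footprint change of all members. It had 124 footprints at 25°C and 269565 at 37°C, or 3.82 and 8631 RPKM, a 2259-fold difference with a 95% interval of 10.89 to 11.41 in log2 from counting error. Its mRNA was 10.9 and 13.8 FPKM at 25°C and 5813 and 5574 at 37°C, which rose by edgeR with a log2 fold change of 8.30 and an adjusted p of 1.4e-09. The change in footprints per mRNA was 2.30 ± 0.21 in *SUP45* and 1.67 in *sup45-ts* cells. Hsp70 genes share sequence. *SSA1* had 45197 footprints at 25°C and 309656 at 37°C, and *SSA2* 80578 and 292553, so the 3 copies were far apart at 25°C and close at 37°C. The part of shared sequence in the *SSA4* value was not tested.

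Further rises came with mRNA that rose as well. *TSL1*, a subunit of the trehalose synthase complex, had 189 footprints at 25°C and 14199 at 37°C, with 7.08 and 5.05 FPKM at 25°C and 167 and 167 at 37°C, and changed by 1.5 ± 0.27. *MSC1* had 132 and 13789 footprints, with 9.64 and 9.20 FPKM at 25°C and 333 and 343 at 37°C, and changed by 1.60 ± 0.13. The aldehyde dehydrogenase *ALD2*, which has the near-identical neighbour *ALD3*, changed by 1.59 ± 0.12. *SSE2*, an Hsp110 nucleotide exchange factor, had 185 and 9918 footprints and changed by 1.15 ± 0.14. In *sup45-ts* cells *TSL1* changed by 1.10, *MSC1* by 0.84 and *ALD2* by 0.71. Footprints per mRNA at 25°C, which also enter the change by which these genes were chosen, stood against the median transcript at log2 levels of -0.59 for *TSL1*, -0.62 for *MSC1*, 0.14 for *ALD2* and -0.69 for *SSE2*.

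Other rises came with smaller mRNA changes. *SKM1*, a kinase of the PAK family, had 154 footprints at 25°C and 758 at 37°C, with 25.6 and 26.6 FPKM at 25°C and 47.0 and 44.0 at 37°C. Its edgeR log2 fold change was 0.25 (adjusted p of 0.0087), and footprints per mRNA changed by 1.56 ± 0.14 in *SUP45* and 1.47 in *sup45-ts* cells. *GUT1*, the glycerol kinase, had 117 and 373 footprints, with 16.8 and 15.1 FPKM at 25°C and 22.2 and 22.3 at 37°C, and changed by 1.25 ± 0.17. Its mRNA did not pass the edgeR test on the TMM scale (log2 fold change -0.07, adjusted p of 0.54). *PRM9*, a member of the DUP240 membrane protein family, had 105 and 411 footprints and changed by 1.38 ± 0.18, also with no mRNA call (adjusted p of 0.34). The lipid droplet phospholipase *LPL1* had 170 and 911 footprints, with 30.5 and 33.1 FPKM at 25°C and 77.1 and 80.04 at 37°C. Its mRNA rose by edgeR with a log2 fold change of 0.76 (adjusted p of 6.5e-06), and footprints per mRNA changed by 1.17 ± 0.14. In *sup45-ts* cells *GUT1* changed by 0.99, *PRM9* by 0.89 and *LPL1* by 0.57. At 25°C footprints per mRNA stood at log2 levels of -2.23 for *SKM1*, -2.03 for *GUT1*, -1.81 for *LPL1* and -0.28 for *PRM9* against the median transcript. These levels enter the change by which the genes were chosen and are given as a description.

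**Figure D4:**
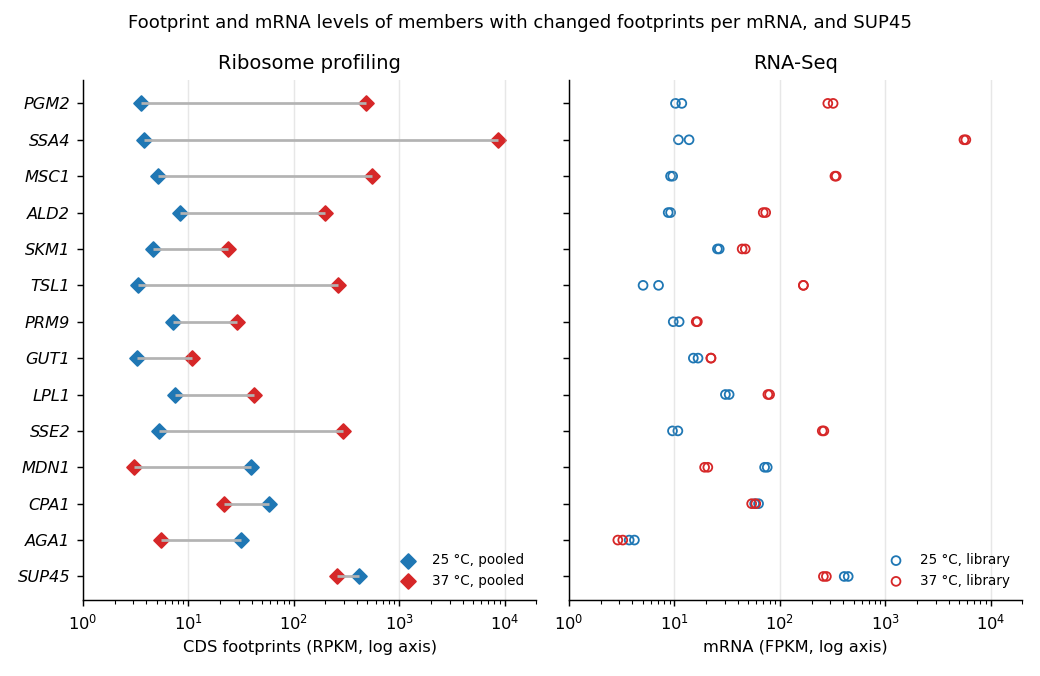
Footprint level (left, RPKM, 1 pooled value per condition) and mRNA level (right, FPKM, 1 point per library) at 25°C (blue) and 37°C (red) of 10 genes with higher and 3 with lower footprints per mRNA, and of *SUP45*, on log axes. *PGM2* and *SSA4* moved further in footprints than in mRNA, *CPA1* and *MDN1* lost more footprints than mRNA, and *SUP45* moved equally in both.

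The remaining rises by the naming rule were elements and duplicated genes. The Ty1 gene *YAR010C* had the largest value, 3.73, but its SE was 1.44, from mRNA levels of 25.8 and 4.62 FPKM at 25°C and 2.52 and 0.92 at 37°C that nearly met. The subtelomeric *COS3* changed by 2.45 ± 0.28 with mRNA under 1 FPKM in each of the 4 libraries. *ANB1*, the copy of eIF5A used in low oxygen, changed by 1.23 ± 0.15 with mRNA of 3.23 to 15.9 FPKM, beside 66513 and 56954 footprints of its aerobic copy *HYP2*.

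Most of the 30 transcripts with lower footprints per mRNA were members of duplicated gene families. Of the 30, 14 had footprints per mRNA at least 8-fold over the median at 25°C, against 38 in all. In the listed families were 19 of the 30, against 200 of 4626 measured members. The list was drawn up after the values were seen, so this contrast is a description only. It is also not complete, since *PRM9* and *GSY2* are outside it. The 12 largest falls by the naming rule, from *TDH1* at -4.09 to *ENO1* at -2.23, were all in the listed families. They also included *PDC6*, *HEF3*, *GDH3*, *RPL15B*, *PMA2*, *YHR054C*, *HXT5*, *PIR3*, *SSA1* and *YLR035C-A*. *TDH1*, a minor glyceraldehyde-3-phosphate dehydrogenase on chromosome X, had 67420 footprints at 25°C with only 23.03 and 16.54 FPKM of mRNA, and 73997 footprints with 379 and 390 FPKM at 37°C. The identical-protein genes *TEF1* and *TEF2*, which encode elongation factor 1A, had 310897 and 316117 footprints at 25°C although their mRNA levels differed in both libraries (8438 and 8269 FPKM against 13335 and 12676). Other copies differed in footprints, such as *TDH3* with 337033 at 25°C, *ENO1* and *ENO2* with 106605 and 327479, and *HEF3* and *YEF3* with 1491 and 227220. The authors' bowtie settings kept footprints that match several transcripts, up to a limit. Their methods do not describe how such footprints were shared among copies. The mRNA levels came from RSEM, a different procedure.

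Values summed over a family are weighted to its abundant copies and say little about a minor copy. Footprints per mRNA of *TDH1*, *TDH2* and *TDH3* together changed by -0.08, of *ENO1* and *ENO2* by -0.03 and of *SSA1* and *SSA2* by 0.13. The change was -0.03 for *HSP82* and *HSC82*, -0.02 for *RPL15A* and *RPL15B* and 0.02 for *PMA1* and *PMA2*. It was largest for *YEF3* and *HEF3*, at -0.21. Since copies share sequence, the values of single copies are uncertain, and the same holds for opposite signs within a pair, such as 0.77 for *TEF1* and -0.23 for *TEF2*. Without the listed families, 17 transcripts were called higher and 11 lower, and genes with relatives outside the list remain in these counts.

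The 11 transcripts called lower outside the families were looked at singly after their values were seen. *GCR1*, the activator of glycolytic genes, had 0 and 0.11 FPKM at 25°C for its spliced form, and its value of -4.63 turned to 0.23 when the unspliced form was added to the mRNA. *HNT1*, another gene with an intron, stayed low, at -1.51 for the spliced form and -1.89 for the sum. The mating agglutinin anchor *AGA1* had 1163 footprints at 25°C and 193 at 37°C with 4.18 and 3.73 FPKM at 25°C and 2.91 and 3.24 at 37°C, a change of -2.17 ± 0.16. The others were *MDN1*, *CPA1*, *AKR2* (-1.09), *YNL190W* (-1.06), *COX7* (-1.05), *YPR169W-A* (-1.01), and *MNL1* and *RRP5*, which lay just past the 2-fold limit.

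*CPA1* encodes the small subunit of the arginine-specific carbamoyl phosphate synthetase, and its leader carries an upstream open reading frame whose peptide is known to stall ribosomes when arginine is plentiful. It had 1183 CDS footprints at 25°C and 427 at 37°C, or 57.8 and 21.7 RPKM. Its mRNA level was 62.9 and 57.7 FPKM at 25°C and 54.1 and 59.2 at 37°C, so the libraries of the conditions overlapped on this scale, and on the TMM scale it fell by edgeR with a log2 fold change of -0.64 (adjusted p of 1.6e-05). The change in footprints per mRNA was -1.32 ± 0.12, from -1.45 to -1.19 over the pairings, and -2.14 in *sup45-ts* cells. The other genes with known upstream reading frames did not share this size of change. *GCN4*, the activator of amino acid synthesis, stood at 0.27, *YAP1* at 0.13, *HAP4* at -0.31, *CLN3* at -0.23 and *CBS1* at 0.78, the last from 101 footprints at 25°C. Among 73 amino acid synthesis genes *CPA1* was the only one called in either direction.

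*MDN1* encodes midasin, the AAA ATPase that remodels the large subunit precursor, and has the longest coding sequence of the set, 14730 nt. It had 10083 footprints at 25°C and 748 at 37°C, or 39.7 and 3.06 RPKM. Its mRNA was 71.8 and 76.0 FPKM at 25°C and 20.8 and 19.4 at 37°C and fell by edgeR with a log2 fold change of -2.43 (adjusted p of 3.3e-08). Footprints per mRNA changed by -1.81 ± 0.09, from -1.91 to -1.72 over the pairings. The change in *sup45-ts* cells was -0.31.

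Long coding sequences as a group lay below the median. Of the 37 members with a coding sequence over 6000 nt, a limit chosen after the data were seen, 36 had a change in footprints per mRNA below 0, with a median of -0.31 and a range from -1.81 for *MDN1* to 0.42 for *HFA1*. They included the dynein heavy chain *DYN1* (-0.53), the SAGA and NuA4 subunit *TRA1* (-0.58), the Ras GTPase-activating proteins *IRA1* (-0.58) and *IRA2* (-0.66), the checkpoint kinases *TEL1* (-0.65) and *MEC1* (-0.47), and the fatty acid synthase subunit *FAS1* (-0.27). *TOR1* at -0.11 and *TOR2* at -0.0011 were near the median. Their median log2 mRNA change was 0.39 in FPKM, near that of all members. Between the strains at 25°C the same 37 genes had a median difference of 0.01, and the shift of *sup45-ts* cells gave a median of 0.40, with 29 of 37 above 0. The direction in the long genes thus differed between the strains' shifts, and that difference was not tested. Across all members Spearman's rho between CDS length and the change was -0.14, and within the 113 ribosome biogenesis genes it was -0.58. The longest genes of that list were at its bottom, with *UTP20* at -0.73, *UTP10* at -0.85 and *RRP5* just past the 2-fold limit. For lengths of the 5' and 3' untranslated regions rho was -0.02 and -0.07. With the number of footprints at 25°C, which also sets the counting error, it was -0.21.

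**Figure D5:**
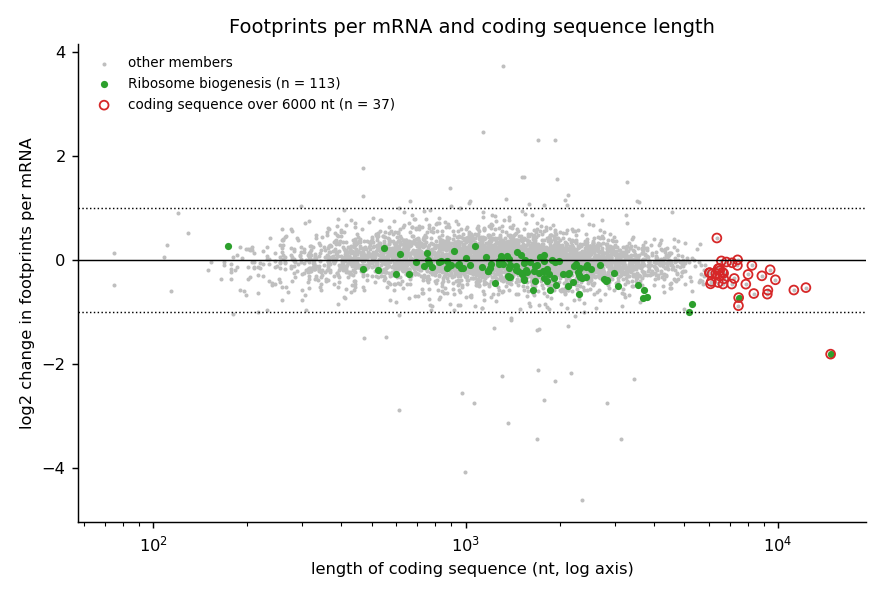
Log2 change in footprints per mRNA (y axis) against the length of the coding sequence (x axis, nt, log axis), 1 point per transcript, with ribosome biogenesis genes in green and coding sequences over 6000 nt ringed in red. Of the 37 ringed points 36 lie below 0, with *MDN1* lowest at -1.81, and the green points slope down with length.

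Some large footprint changes came with mRNA changes in the same direction. *ADE17*, an enzyme of purine synthesis, had 129 footprints at 25°C and 15659 at 37°C, with 6.15 and 5.96 FPKM at 25°C and 498 and 543 at 37°C, and footprints per mRNA changed by 0.56 ± 0.14. At the other end *INA1* had 6291 and 322 footprints, with 112 and 114 FPKM at 25°C and 10.74 and 10.98 at 37°C, and changed by -0.85 ± 0.09. *RPL22B* had 2562 and 155 footprints and changed by 0.02 ± 0.45, and the RNA helicase *DBP2* had 12874 and 781 and changed by -0.57 ± 0.13.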

How the data were processed

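Per the authors' methods, footprints from RNase I digestion were trimmed with cutadapt, cleared of non-coding RNA and PCR duplicates, mapped to spliced coding transcripts of S288C R64 and assigned to P-sites. Replicates were combined, and the deposited tables give frame 0 counts per transcript without the first 15 and last 33 nt of the CDS, with RPKM made by the authors and the region lengths. The deposited RNA-Seq files give RSEM expected counts, FPKM and TPM per transcript on 6952 transcripts, spliced and unspliced forms apart. The ribosome profiling libraries also have RSEM files, whose FPKM correlated negatively with the CDS footprint RPKM (rho -0.30 to -0.24), so they were not used further.

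Change in footprints per mRNA was log2 of the RPKM ratio minus log2 of the mean FPKM ratio, centred on the member median, over members with at least 100 footprints in both tables. Footprint intervals are exact conditional binomial intervals (95%) for counting error only. Expected counts were rounded and all 8 RNA-Seq libraries were fitted together with edgeR 4.0.16 (TMM, low-count filter, quasi-likelihood test, Benjamini-Hochberg adjustment over all 6767 transcripts). DESeq2 1.42.0, in R 4.3.3, was an alternative. Unadjusted, 5227 transcripts had p below 0.05. On counts simulated for this comparison (6749 transcripts, 200 changed) the fit recovered 100% of 2-fold and 92% of 1.4-fold changes, and 5.88% of its calls were false. The simulation used 1 fixed spread, equal rises and falls, and far fewer changed transcripts than were called in the data. Its rates therefore do not carry over to these data. Python 3.11.15, pandas 2.3.3 and scipy 1.17.1 served for the rest.

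The members, the 19 gene lists and the tests were chosen with earlier results of these data known, and the duplicated families were listed after the values were seen. Named genes were the 12 largest rises and 12 largest falls past 2-fold in all 4 pairings of RNA-Seq libraries, the 3 largest footprint rises and falls, members with the most footprints in each list (at most 4), *SUP45*, the 5 transcripts with most footprints at one temperature and under 100 at the other in each direction, and those 2 inside and 2 outside the limit. Gene positions are from RefSeq R64, which held 4621 of the 4629 members.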

Additional observations from a re-analysis of the deposited data

Results flagged for a closer look

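*ANB1*, the low-oxygen copy of eIF5A, was called in opposite directions in the strains' heat shifts. Its footprints per mRNA changed by 1.23 in *SUP45* and by -2.23 in *sup45-ts* cells, each from 1 pooled footprint value per condition, and the difference was not tested. It shares sequence with *HYP2*.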

How the results depend on the processing

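The count of members with footprints per mRNA at least 2-fold higher was 24, and 39 with a minimum of 50 footprints, 3 with a minimum of 500 and 15 when all 4 pairings of the RNA-Seq libraries had to pass. The count of those at least 2-fold lower was 30, and 16 with a minimum of 500 and 11 without duplicated families. The last alternative, and a minimum mean of 5 FPKM (22 higher, 24 lower), were chosen after seeing the data. Leaving out 1 RNA-Seq library gave 23 to 26 higher and 30 to 36 lower. Footprint levels at least 2-fold higher numbered 1168, and 525 with a minimum of 500, where 2810 members were left. Centring on the median member gave 572 higher and 785 lower in place of 1168 and 482. By edgeR mRNA was higher for 2601 and lower for 2530 transcripts, by DESeq2 for 2539 and 2465, and without 1 library for 2432 to 2472 and 2248 to 2408. With the replicate number as a block the counts were 2622 and 2541. The labels do not say that a number pairs libraries, 2 pairs are too few to show it, and the deviations of same-numbered libraries correlated at 0.22. No paired analysis of footprints was possible because replicates are pooled. Of 266 list medians under alternatives, 227 moved by less than 1 SD of the values without 1 library, and the largest shift was 0.21 (Msn2/4 stress genes, without replicate 2 at 25°C). Of 300 values of the named rises and falls, none changed sign, and 1 fell under 2-fold (*ANB1*, 0.97, with 1 added to RPKM and FPKM). These genes were chosen for passing 2-fold in all 4 pairings, so leaving out 1 library could hardly change their calls. A setting that removed a gene, such as the minimum of 500 footprints, gave no value for it.

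Pooling leaves differences between footprint libraries unmeasured, and at 100 footprints counting alone limits the precision of each change.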

Other observations

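Transcripts under 100 footprints at one temperature lie outside the counts above, and some of the strongest heat shock genes are among them. The small heat shock protein gene *HSP26* had 55 footprints at 25°C and 126083 at 37°C, with 3.36 and 8.76 FPKM at 25°C and 9114 and 9451 at 37°C. *HSP12*, which encodes a membrane-protecting stress protein, had 50 and 44243 footprints, and its footprints per mRNA changed by -0.27. The inducible Hsp70 *SSA3* had 94 and 28265 footprints and a change of 2.35 with a counting SE of 0.15. *TFS1*, an inhibitor of carboxypeptidase Y, had 57 and 16712 footprints, with 12.6 and 10.9 FPKM at 25°C and 594 and 643 at 37°C, a change of 2.54 with a counting SE of 0.19. *YMR196W* had 76 and 7208 footprints and a change of 2.18.

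In the other direction, *ATF1*, the alcohol acetyltransferase of ester synthesis, had 439 footprints at 25°C and 15 at 37°C. Its mRNA was 26.5 and 31.4 FPKM at 25°C and 18.6 and 20.4 at 37°C, so footprints per mRNA changed by -4.24 with a counting SE of 0.38. The mating-type endonuclease gene *HO* had 2053 and 5 footprints, with 67.5 and 61.5 FPKM at 25°C and 2.34 and 2.14 at 37°C, a change of -3.77 with a counting SE of 0.65. *SFG1* had 1252 and 85 footprints and changed by -0.58, *FRE4* had 583 and 53 and changed by -1.13, and *ALT2* had 485 and 98 and changed by -0.52.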
